A study of Saccharomyces cerevisiae with 44 samples.

Results

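Replication was compared between budding yeast cells whose Dbf4 lacked its C-terminus (dbf4ΔC) and cells whose Dbf4 carried point mutations in the zinc finger within that C-terminus (dbf4-Zn*1 and dbf4-Zn*2, together dbf4-Zn*). The comparison asked what the truncation removes beyond the zinc finger. It rested on 6 of the 20 IP libraries of newly replicated DNA, out of 44 libraries in the series. They are the 2 replicates of dbf4ΔC, against the 4 libraries of dbf4-Zn*, 2 of dbf4-Zn*1 and 2 of dbf4-Zn*2, chosen by the genotype in their labels.

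The dbf4ΔC strain, HYy215, carries dbf4ΔC marked with HIS3MX and the BrdU-incorporation cassette at ura3. The dbf4-Zn*1 strain, MPy74, carries C661A and C664A, and the dbf4-Zn*2 strain, MPy76, carries H680C, both with unmarked alleles and the cassette at leu2. All are congenic with W303, so the 2 arms differ in the locus of the cassette and in a marker as well as in the allele, and each genotype is 1 strain. Cells were grown at 23 °C, held in G1 with α-factor, and released into 200 mM hydroxyurea (HU) with BrdU at 400 μg/mL. The labels give 60 min in HU for every strain, while the study's legend gives a longer time for dbf4ΔC, and a longer time and the allele cannot be told apart here. The labels do not say whether replicates were separate cultures, so p-values measure a spread between libraries that may be technical. In the main edgeR fit that spread was estimated within strains over all 20 IP libraries, most of them from strains outside this comparison. Its p-values therefore do not rest on the spread within the 2 arms alone, whereas the permutation tests used only the libraries of the 2 arms. In a bulk culture, fewer cells that fire an origin and less labelled DNA per cell cannot be told apart.

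Dbf4 is the regulatory subunit of the Dbf4-dependent kinase (DDK), whose catalytic subunit is Cdc7. DDK phosphorylates the MCM helicase at licensed origins, the step that lets an origin fire. Dbf4 is limiting in budding yeast, and origins compete for it. The forkhead proteins Fkh1 and Fkh2 bring Dbf4 to a group of early origins, and the kinetochore protein Ctf19 brings it to origins that flank centromeres (CENs). HU depletes nucleotides and slows forks, so DNA labelled with BrdU in HU lies mostly around the origins that fire early. In quantitative BrdU-IP-seq (QBU) this DNA is recovered with an antibody (IP), and unselected DNA of the same cells is sequenced beside it (Total).

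Signal is the count in a window divided by the mean over all 50-bp bins of the same library, so 1 is the genome-wide mean. The IP libraries held 2815295 and 2918006 bin counts in dbf4ΔC, against 1501580 to 6179788 in dbf4-Zn*, and their origin windows held a median of 183 and 169 counts in dbf4ΔC, against 251 to 1142 in dbf4-Zn*. The truncation itself was visible. A stretch of DBF4 at chromosome IV 558551-558650, coding sequence near the 3′ end of the gene, had 0 counts in all 4 dbf4ΔC libraries, IP and Total. The Total signal there lay between 0.966 and 1.31 in dbf4-Zn*. URA3 had a Total signal of 1.64 and 1.82 in dbf4ΔC, against 0.675 to 0.819 in dbf4-Zn*. LEU2 had 1.29 and 1.15 in dbf4ΔC, against 1.48 to 1.62 in dbf4-Zn*, and HIS3 had 0.764 and 0.742 in dbf4ΔC, against 0.623 to 0.799 in dbf4-Zn*. Coordinates are those of the files, which name no genome build.

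The IP signal of dbf4ΔC was spread over far more of the genome. How much of the signal between peaks is labelled DNA was not tested. The median bin held 0.600 and 0.579 of the library mean in dbf4ΔC, against 0.214 to 0.322 in dbf4-Zn*. The smallest share of 1-kb windows that together held 50% of the signal was 16.8% and 17.5% in dbf4ΔC, against 4.64% and 4.84% with dbf4-Zn*1 and 4.97% and 5.19% with dbf4-Zn*2. The means were 17.2% ± 0.481 in dbf4ΔC (SD, n = 2) and 4.91% ± 0.229 in dbf4-Zn* (SD, n = 4; exact permutation test over libraries, two-sided, p = 0.0667). The groups did not overlap, and 0.0667 is the smallest p that 15 splits of 2 against 4 libraries allow, so no measure taken once per library could pass 0.05. The upper end was described in the 1-kb windows outside the rDNA (n = 12020), whereas the 50% share above took in the rDNA. Windows above 10 times the mean made up 0.00832% of these in each dbf4ΔC library, against 1.82% to 2.07% in dbf4-Zn*. The highest 1% of these windows held 5.30% and 5.12% of the signal in dbf4ΔC, against 16.0% to 16.6% in dbf4-Zn*.

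Origins were taken as 163 peaks of the averaged IP profiles, each measured in a 500-bp window and named here by chromosome and kb. Most of them had less signal in dbf4ΔC than in dbf4-Zn*. On the scale of the library mean, 133 of 163 origins were lower in dbf4ΔC (81.6%), 7 were higher (4.29%) and 23 were not called. The median log2 fold change was -1.66 (edgeR quasi-likelihood test, adjusted p under 0.05). The libraries of the 2 groups did not overlap at 142 origins (87.1%). Only 6 and 4 origins reached 5 times the mean in the dbf4ΔC libraries, against 68 to 71 in the dbf4-Zn* libraries. Between libraries, log2 origin signal had r = 0.93 within dbf4ΔC, 0.98 to 0.99 within dbf4-Zn*, and 0.69 to 0.78 across the groups, as a description over 163 origins that share peak calls.

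These falls are relative to each library's mean, which the spread signal raises between the peaks. TMM, which centres the origins on each other, moved the median log2 fold change to -0.09 and gave 48 origins lower (29.4%) and 55 higher (33.7%). The ratio of IP to Total counts gives another scale, although whether libraries were pooled before the IP, on which its meaning depends, is not given in the sources used here. It was 1.15 and 0.268 in dbf4ΔC replicates 1 and 2, against 0.494 and 0.128 with dbf4-Zn*1 and 0.507 and 0.117 with dbf4-Zn*2. The groups overlapped. Among libraries with the same replicate number dbf4ΔC had 2.29 and 2.19 times the mean of the dbf4-Zn* strains, but the labels do not make the numbers pairs. With the Total count as library size and the replicate number as a block, in a fit of the 6 libraries chosen after the data were seen, 83 origins were lower and 39 higher, and the median stood at -0.49. In the 20-library fit the Total count as library size gave 0 origins called by edgeR in either direction, both with the block (9 had an unadjusted p under 0.05) and without it (2 had). Which scale reflects DNA synthesis per cell was not tested, so most falls below are also given relative to the other origins.

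**Figure D1:**
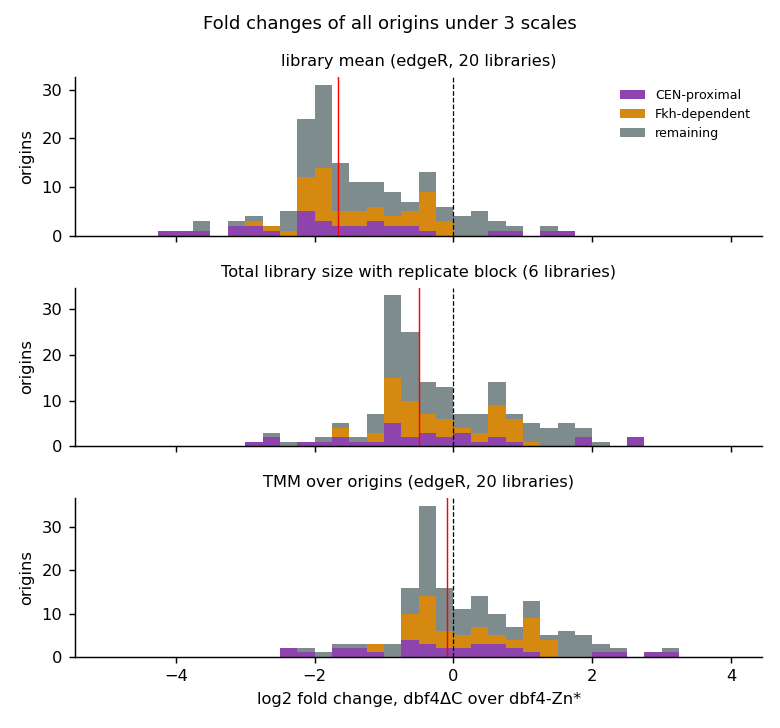
Histograms of the log2 fold change of dbf4ΔC over dbf4-Zn* for the 163 origins, coloured by class, on the scale of the library mean (top), with the Total count as library size and a replicate block in a fit of the 6 libraries alone (middle) and with TMM (bottom). The dashed line marks no change and the red line the median, which lies at -1.66, -0.49 and -0.09, so 133, 83 and 48 origins were lower and 7, 39 and 55 higher.

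The 8 largest falls were II-237, II-254, XI-448, III-225, III-40, XVI-553, V-145 and II-267, and 5 of them are CEN-proximal. Each of these 8 was also lower with TMM, with log2 fold changes between -2.47 and -1.58. II-237, the origin nearest to CEN2, lies between HTB2 and ECM15 at chromosome II 236751-237250. It had 1.00 and 1.06 times the library mean in dbf4ΔC, against 16.0 and 19.1 with dbf4-Zn*1 and 15.1 and 17.9 with dbf4-Zn*2. A prominent peak in all dbf4-Zn* libraries thus stood at the genome-wide mean in both dbf4ΔC libraries, a log2 fold change of -4.04 ± 0.14 (SE; edgeR adjusted p = 7.75e-22).

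II-254, on the other side of CEN2, lies between FLR1 and HHF1 at chromosome II 254101-254600. It had 1.35 and 1.09 in dbf4ΔC, against 17.4 and 18.2 with dbf4-Zn*1 and 17.1 and 18.2 with dbf4-Zn*2. Its log2 fold change was -3.86 ± 0.13 (SE; edgeR adjusted p = 1.03e-22). Both origins of CEN2 therefore fell to near the library mean, and the 32 kb at chromosome II 227001-259000 that hold them and CEN2 formed the longest run of windows lower in dbf4ΔC on the library-mean scale. The mean signal over that run was 0.98 and 0.887 in dbf4ΔC, against 9.42 and 9.42 with dbf4-Zn*1 and 8.84 and 9.02 with dbf4-Zn*2.

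XI-448, CEN-proximal and between ECM9 and YKR005C (chromosome XI 447801-448300), had 0.815 and 0.836 in dbf4ΔC, against 10.3 and 12.7 with dbf4-Zn*1 and 9.82 and 10.5 with dbf4-Zn*2, a log2 fold change of -3.71. XVI-553, between ULA1 and SNF8 (chromosome XVI 553151-553650), had 0.532 and 0.554 in dbf4ΔC, against 4.82 to 5.48 in dbf4-Zn*, a log2 fold change of -3.22. V-145, between YEA6 and VAB2 (chromosome V 145201-145700), had 0.669 and 0.604 in dbf4ΔC, against 5.05 to 6.27 in dbf4-Zn*, a log2 fold change of -3.15. All 3 lay below the genome-wide mean in both dbf4ΔC libraries.

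The other 3 of the largest falls were outside the CEN-proximal class. III-40, between APA1 and YCL049C (chromosome III 39451-39950), had 1.76 and 1.66 in dbf4ΔC, against 18.8 and 20.3 with dbf4-Zn*1 and 19.1 and 20.2 with dbf4-Zn*2, where it was the third strongest origin. Its log2 fold change was -3.52 ± 0.18 (SE; edgeR adjusted p = 2.83e-17), and it stood at rank 70 of 163 in dbf4ΔC. III-225, between TAH1 and TVS1 (chromosome III 225101-225600), had 1.13 and 1.34 in dbf4ΔC, against 14.3 to 16.5 in dbf4-Zn*, a log2 fold change of -3.67. II-267, inside GRX7 (chromosome II 266601-267100), had 1.00 and 1.03 in dbf4ΔC, against 8.57 to 9.34 in dbf4-Zn*, a log2 fold change of -3.15, and it averaged 1.46 in WT. Peaks were called on the average of all 20 IP profiles, the dbf4-Zn* libraries among them. II-267 may thus be in the list through its dbf4-Zn* signal, and its fall is only a description. III-40 and III-225 went with the lowest ratio of any chromosome: the mean signal of chromosome III was 1.30 and 1.29 in dbf4ΔC, against 2.28 to 2.45 in dbf4-Zn*. A further strong origin there, III-76, named after its values were seen, fell less, at -1.89. It had 5.03 and 4.61 in dbf4ΔC, against 16.8 to 19.1 in dbf4-Zn*, and stood at rank 8 in both groups.

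**Figure D2:**
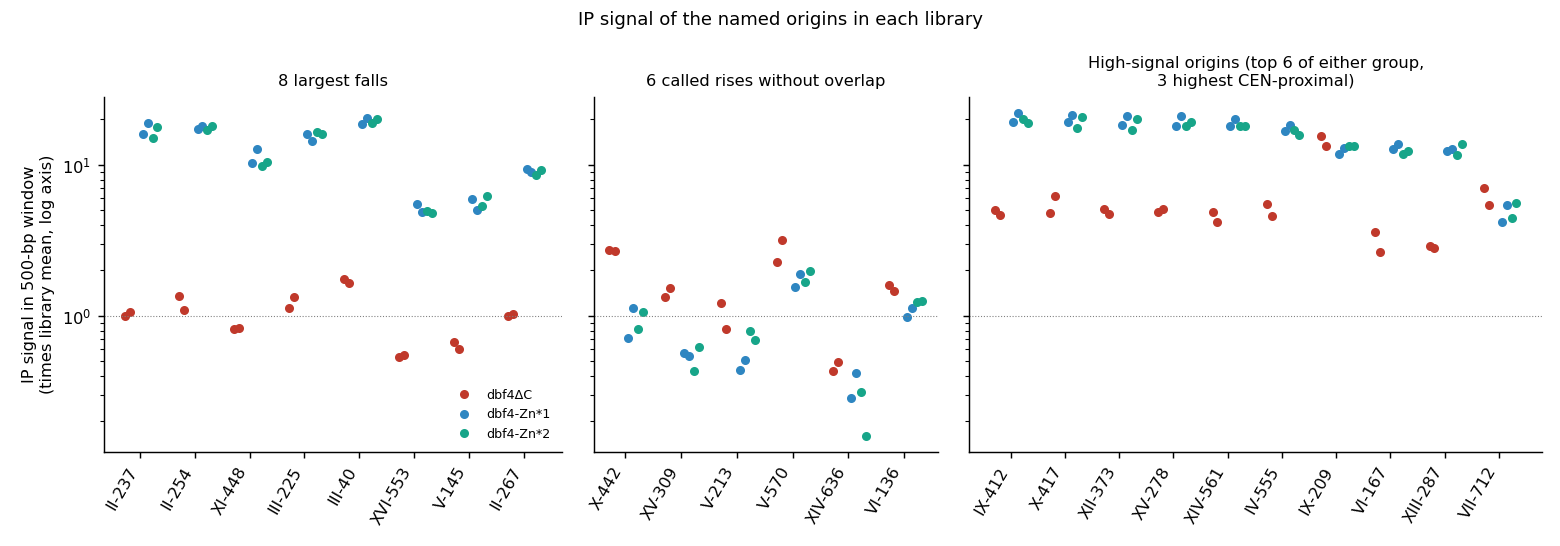
IP signal of named origins in each library, as the mean of a 500-bp window over the library mean on a log axis, with dbf4ΔC in red to the left of dbf4-Zn*1 (blue) and dbf4-Zn*2 (green), and a dotted line at the library mean. At the 8 largest falls the dbf4ΔC points lie between 0.532 and 1.76 and the dbf4-Zn* points between 4.82 and 20.3, whereas IX-209 and VII-712 show points at like heights in both groups.

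Only 7 origins were higher in dbf4ΔC on the library-mean scale, and at 6 of them the libraries did not overlap. With peaks called from the 14 other IP libraries 16 of 178 were higher. X-442, inside MRX12 and 5.76 kb from CEN10 (chromosome X 441851-442350), rose most. It had 2.72 and 2.67 in dbf4ΔC, against 0.712 and 1.12 with dbf4-Zn*1 and 0.824 and 1.06 with dbf4-Zn*2. Both dbf4ΔC libraries thus lay above all dbf4-Zn* libraries, with a log2 fold change of 1.59 ± 0.25 (SE; edgeR adjusted p = 7.27e-07). Its partner across CEN10, X-417 (chromosome X 416601-417100, beside NOP9), was the strongest CEN-proximal origin in both groups and moved the other way: it had 4.83 and 6.21 in dbf4ΔC, against 19.3 and 21.4 with dbf4-Zn*1 and 17.6 and 20.8 with dbf4-Zn*2, a log2 fold change of -1.84 ± 0.13 (SE). Relative to the other origins X-417 did not pass the test, with a log2 fold change of -0.26 with TMM.

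XV-309, inside RCL1 and 17.8 kb from CEN15 (chromosome XV 308401-308900), had 1.33 and 1.53 in dbf4ΔC, against 0.430 to 0.627 in dbf4-Zn*, a log2 fold change of 1.44. The other 4 rises without overlap were V-213, V-570, XIV-636 and VI-136, with log2 fold changes of 0.78, 0.63, 0.63 and 0.43. On the same scale the median over all 12020 1-kb windows was 1.07, and 65.3% of windows were called higher. These 4 rises were thus smaller than that of the median window. All 7 origins called higher stayed higher with TMM. That adds no support, since TMM moved the median of all origins up from -1.66 to -0.09. The 6 rises without overlap were weak peaks in dbf4-Zn*, at or below rank 126 of 163. Several were strong in the WT IP libraries, with a WT mean of 12.6 at X-442, 10.7 at VI-136, 9.87 at XIV-636 and 4.86 at XV-309. Of the 4 smaller rises the highest in dbf4ΔC, V-570, had 2.28 and 3.17, against 1.55 to 1.98 in dbf4-Zn*, and it was not called without dbf4ΔC replicate 2, at 0.37. V-213 was not called without dbf4ΔC replicate 1, at 0.46, nor against dbf4-Zn*2 alone, at 0.44. XIV-411, the seventh, overlapped between the groups, with 0.154 and 0.612 in dbf4ΔC, against 0.0783 to 0.323 in dbf4-Zn*; it is named after its values were seen. XIV-636 had 0.429 and 0.496 in dbf4ΔC, below the median bins of those libraries, at 0.600 and 0.579. Its log2 fold change was -5.94 once each library's median bin was subtracted, so its rise does not stand above background. VI-136, the smallest rise, was not called under 9 of the alternatives run.

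Most of the strongest origins kept high ranks in dbf4ΔC, at a lower level. Of the 6 highest origins in dbf4ΔC, X-417, XII-373 and XV-278 were also among the 6 highest in dbf4-Zn*. Among the 20 highest of each group, 15 were shared (75% of each list). XII-373, beside HOG1, the stress MAP kinase (chromosome XII 373101-373600), had 5.15 and 4.72 in dbf4ΔC, against 17.2 to 21.2 in dbf4-Zn*, a log2 fold change of -1.96. IX-412, between the allantoin genes DAL2 and DCG1 (chromosome IX 411701-412200), was the highest in dbf4-Zn* and had 5.06 and 4.68 in dbf4ΔC, against 19.1 to 22.2 in dbf4-Zn*, a log2 fold change of -2.05. XIV-561 had 4.85 and 4.22 in dbf4ΔC, against 18.0 to 20.0 in dbf4-Zn*, and IV-555, inside VMS1, had 5.54 and 4.61 in dbf4ΔC, against 15.7 to 18.3 in dbf4-Zn*. The log2 fold changes of these 4 origins lay between -2.05 and -1.74, below the median of all origins at -1.66, whose first quartile was -2.01. With TMM XII-373, IX-412 and XIV-561 were called lower, at -0.39, -0.48 and -0.46, and IV-555 was not called.

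The 2 highest peaks of dbf4ΔC stood apart. IX-209 had 15.6 and 13.3 in dbf4ΔC, against 11.9 to 13.4 in dbf4-Zn*, and VII-712 had 7.05 and 5.46 in dbf4ΔC, against 4.18 to 5.58 in dbf4-Zn*. Neither was called (edgeR adjusted p = 0.264 and 0.0535), and with TMM both were higher, by 1.73 and 1.92 on the log2 scale. Both lie in Ty3 retrotransposon genes, YIL082W-A and YGR109W-B, and both were high in Total DNA too. IX-209 had a Total signal of 3.59 and 3.47 in dbf4ΔC, against 3.14 to 3.45 in dbf4-Zn*, and VII-712 had 2.34 and 2.19 in dbf4ΔC, against 2.00 to 2.18 in dbf4-Zn*. Reads of near-identical copies may be placed there, so these 2 values are uncertain.

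On chromosome XV, 5 origins that the study names were matched to peaks by position. XV-278 (ARS1511, chromosome XV 277651-278150, between YOL024W and IFM1) had 4.90 and 5.07 in dbf4ΔC, against 18.1 and 21.1 with dbf4-Zn*1 and 18.0 and 19.3 with dbf4-Zn*2. XV-1053 (ARS1529.5, between RDR1 and FRE3) had 3.68 and 3.48 in dbf4ΔC, against 15.8 to 17.4 in dbf4-Zn*. XV-437 (ARS1513.5, beside ASE1) had 2.94 and 1.99 in dbf4ΔC, against 7.64 to 10.3 in dbf4-Zn*. All lay lower in both dbf4ΔC libraries, and so did XV-114 (ARS1509), with 2.43 and 2.18 in dbf4ΔC, against 7.59 to 8.43 in dbf4-Zn*, and XV-36 (ARS1506.5, beside ZPS1), with 1.04 and 0.786 in dbf4ΔC, against 2.18 to 2.79 in dbf4-Zn*. Their log2 fold changes were -1.94, -2.20, -1.82, -1.80 and -1.45 in that order, and with TMM only XV-278 and XV-1053 passed the test, at -0.37 and -0.63.

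CEN-proximal origins were the peaks closest to a CEN to its left and right, over 16 chromosomes. They stood lower against the other origins of the same library in dbf4ΔC than in dbf4-Zn*. Of 32, 27 were lower in dbf4ΔC, 3 were higher (X-442, XIV-636 and XV-309) and 2 were not called, beside 81.6% lower over all origins. With TMM 13 were lower and 10 higher, beside 29.4% and 33.7%. The median CEN-proximal origin had 0.853 and 0.865 times the mean in dbf4ΔC, against 3.40 and 3.72 with dbf4-Zn*1 and 3.93 and 3.96 with dbf4-Zn*2. The median log2 signal of CEN-proximal origins less that of the others was -0.92 and -0.75 in dbf4ΔC, against -0.23 and -0.06 with dbf4-Zn*1 and -0.18 and -0.12 with dbf4-Zn*2. The difference of the group means was -0.69 (two-sided exact permutation test over 2 and 4 libraries, p = 0.0667, the smallest possible). The groups did not overlap, and a library's scale cancels in this measure but for the pseudocount. The median of the single fold changes differed less, at -1.72 for CEN-proximal and -1.57 for other origins.

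The CEN-proximal class was uneven. No CEN-proximal origin reached 5 times the mean in dbf4ΔC replicate 1, and 1 did in replicate 2, against 11 to 15 of 32 in dbf4-Zn*. After X-417, the highest in dbf4ΔC were VI-167, between MIC19 and SUP11, and XIII-287, between ANY1 and the hexose transporter gene HXT2. VI-167 had 3.60 and 2.66 in dbf4ΔC, against 11.8 to 13.7 in dbf4-Zn*, and XIII-287 had 2.89 and 2.81 in dbf4ΔC, against 11.7 to 13.7 in dbf4-Zn*. Log2 fold changes over the class ran between -4.04 at II-237 and 1.59 at X-442, and the single origins flanking 1 CEN could go opposite ways, as at CEN10 and CEN15.

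Fkh-dependent origins were taken from libraries outside this comparison, as origins at least 2-fold lower in ctf19Δ fkh1Δ fkh2-dsm than in ctf19Δ and not CEN-proximal. Of 46, 40 were lower in dbf4ΔC and 6 were not called; the highest log2 fold change was -0.08, so 0 were higher, beside 81.6% lower and 4.29% higher over all origins. With TMM 11 were lower and 16 higher, beside 29.4% and 33.7% over all origins. Of the 85 remaining origins, 66 were lower, 4 higher and 15 not called. The Fkh-dependent less the remaining origins gave a log2 difference of 0.81 and 0.91 in dbf4ΔC, against 0.07 to 0.42 in dbf4-Zn* (difference of means 0.57, two-sided exact permutation test over 2 and 4 libraries, p = 0.0667). That difference rested on peaks at chromosome ends. All 11 peaks within 2 kb of an end fell in this class. Of these, 5 lie inside YRF1 genes of the subtelomeric Y′ repeat, whose near-identical copies can share reads. The others lie in or beside genes named only by locus, such as YBL113C and YPR204W, and whether these belong to the repeat was not tested. Without the 11 end peaks the difference was 0.50 and 0.28 in dbf4ΔC, against 0.41 to 0.66 in dbf4-Zn*, and the groups overlapped (difference -0.17, exact permutation p = 0.267). Of the 35 Fkh-dependent origins 2 kb or more from an end, 32 were lower and 3 not called, and their median was -1.88 on the log2 scale. These 35 still hold XII-6, inside YLL066C, and XII-1071, inside YRF1-4, at 6.18 and 7.00 kb from an end. Both were among those not called. The CEN-proximal difference was -0.52 without the end peaks and still did not overlap between the groups.

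**Figure D3:**
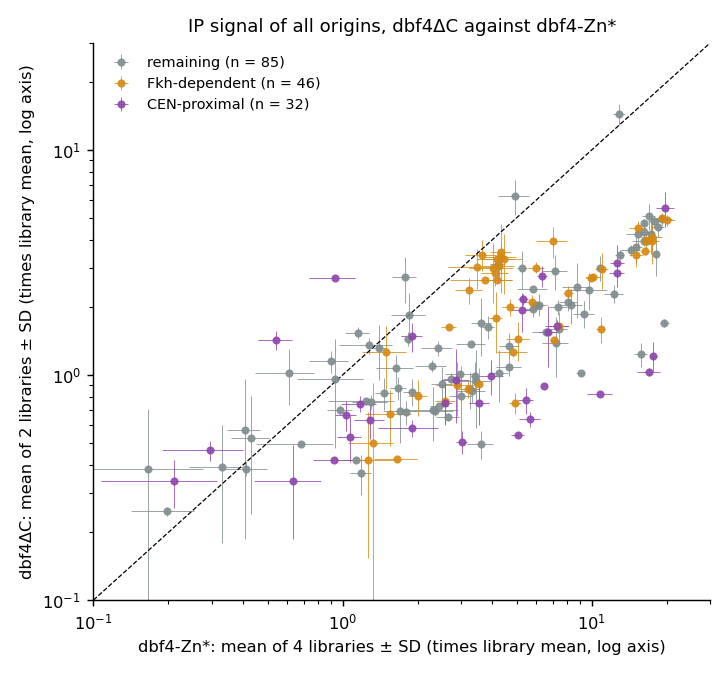
IP signal of each of the 163 origins in dbf4ΔC (vertical axis, mean of 2 libraries) against dbf4-Zn* (horizontal axis, mean of 4), with SD bars, as multiples of the library mean on log axes and coloured by class. Most points lie below the dashed line of equal signal, CEN-proximal points reach farthest below it at II-237 (log2 fold change -4.04), and the Ty3 peak IX-209 is the highest point in dbf4ΔC.

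Fold changes were lower at origins that are strong in WT, whose libraries are in neither group. Origins were ranked by their mean signal in the 2 WT IP libraries and split into 4 parts. In the strongest 41 origins the median signal was 3.41 in dbf4ΔC and 15.3 in dbf4-Zn*, the median log2 fold change was -2.03, and 41 were lower and 0 higher in dbf4ΔC. In the weakest 41 the median signal was 1.02 in dbf4ΔC and 1.67 in dbf4-Zn*, the median log2 fold change was -0.47, and 21 were lower and 4 higher. Across 163 origins the fold change had r = -0.64 with the log2 WT signal, r = 0.26 with the fold change that defined Fkh dependence, and r = 0.15 with the distance from the CEN. These correlations are descriptions, since the windows share depth and the library mean. The median bin was also higher in dbf4ΔC, at 0.600 and 0.579, against 0.214 to 0.322 in dbf4-Zn*. That limits how far a weak origin can fall, so part of the trend with WT signal may come from this floor, which was not tested.

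Total DNA, the unselected DNA of each strain, was lower at strong origins in both dbf4ΔC libraries, a measure chosen after the data were seen. DNA that has replicated is present in more copies than DNA that has not, so an early origin stands above 1. Over the strongest 41 origins in WT the median Total signal was 1.27 and 1.16 in dbf4ΔC, against 1.52 and 1.60 with dbf4-Zn*1 and 1.41 and 1.54 with dbf4-Zn*2. The difference was -0.30, and the groups did not overlap (two-sided exact permutation test over 2 and 4 libraries, p = 0.0667). Over the weakest 41 origins it was 1.01 and 0.934 in dbf4ΔC, against 0.931 to 1.00 in dbf4-Zn*, and the groups overlapped. Among 15 named origins of at least 10 times the mean in dbf4-Zn*, Total was lower without overlap at 11 and higher at 1, the Ty3 peak IX-209, and the groups overlapped at XII-373, XV-278 and XV-1053. Most of the 15 were named by their IP signal in these strains. The share over all 163 origins is not given here, so this count is a description of the 15 only. III-40 had a Total signal of 0.59 and 0.744 in dbf4ΔC, against 1.67 to 1.83 in dbf4-Zn*, II-254 had 0.983 and 0.874 in dbf4ΔC, against 1.38 to 1.71 in dbf4-Zn*, and XII-373 had 1.93 and 1.49 in dbf4ΔC, against 1.57 to 1.96 in dbf4-Zn*. Over all 32 CEN-proximal origins the Total medians overlapped, with 1.04 and 0.967 in dbf4ΔC, against 1.03 to 1.10 in dbf4-Zn*.

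Around a firing origin, labelled DNA extends as far as its forks travel. In dbf4ΔC the signal stayed high many kb from the summit. Isolated origins were first chosen by WT signal, after the data were seen: 86 with a WT mean of at least 5, no other origin within 20 kb and at least 30 kb from an end. At 10 kb from the summit they had a median of 0.530 and 0.631 of the summit signal in dbf4ΔC, against 0.0670 and 0.0477 with dbf4-Zn*1 and 0.0601 and 0.0519 with dbf4-Zn*2. The groups did not overlap, with means of 0.580 ± 0.0718 in dbf4ΔC (SD, n = 2) and 0.0567 ± 0.00861 in dbf4-Zn* (SD, n = 4; two-sided exact permutation test, p = 0.0667). Of the single origins, 67 of the 86 were higher in both dbf4ΔC libraries than in all dbf4-Zn* libraries. The median summit of the 86 was 1.64 times the mean in dbf4ΔC and 5.78 in dbf4-Zn*, so many dbf4ΔC ratios rest on a low summit. For 33 isolated origins with a mean of at least 5 times the library mean over both groups, the signal 10 kb from the summit was 0.607 and 0.633 of that at the summit in dbf4ΔC, against 0.0822 to 0.111 in dbf4-Zn* (each less the library's median bin). At 5 kb the ratio was 0.853 and 0.836 in dbf4ΔC, against 0.378 to 0.473 in dbf4-Zn*. At 20 kb it was 0.369 and 0.398 in dbf4ΔC, where dbf4-Zn* had 0.00432 to 0.0106. Both dbf4ΔC libraries lay above all dbf4-Zn* libraries at 31 of the 33 (93.9%), the exceptions being III-225 and the Ty3 peak VII-712. Of these 33, 3 reached 5 times the mean in dbf4ΔC and 32 in dbf4-Zn*, so the choice itself favoured a high summit in dbf4-Zn* and these values are a description. The time in HU, longer for dbf4ΔC in the study's legend, cannot be told apart from the allele here.

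**Figure D4:**
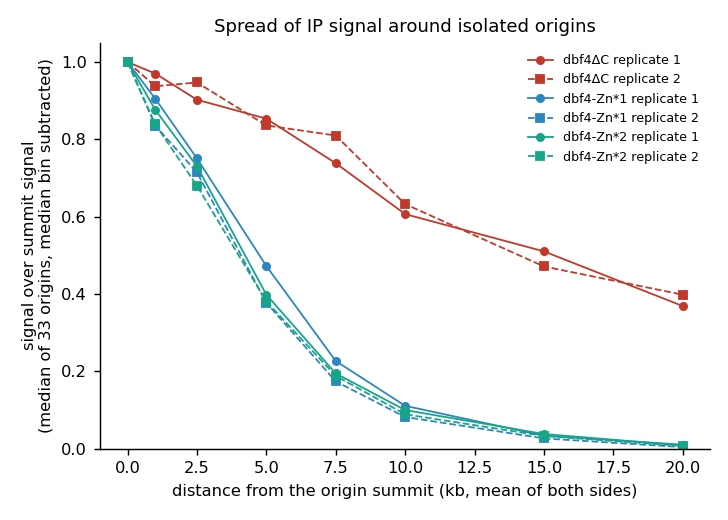
Median over 33 isolated origins of the signal at a distance from the summit over that at the summit (vertical axis, median bin subtracted), against distance in kb (horizontal axis), for the 2 dbf4ΔC libraries (red) and the 4 dbf4-Zn* libraries (blue and green; solid lines are replicate 1, dashed replicate 2). At 10 kb the dbf4ΔC curves are at 0.607 and 0.633 and all dbf4-Zn* curves at or below 0.111.

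Across the whole genome, 1-kb windows split by their distance from an origin. Of 12020 windows tested, 1292 were lower in dbf4ΔC (10.7%) and 7849 higher (65.3%), with edgeR on the library-mean scale. With TMM 2342 were lower (19.5%) and 1893 higher (15.7%). Within 2 kb of an origin 80.0% of windows were lower and 6.60% higher. Between 10 and 20 kb from an origin 0.840% were lower and 85.5% higher, and there the mean signal was 1.22 in dbf4ΔC and 0.479 in dbf4-Zn*. The order held with TMM, where 93.1% of windows within 2 kb were lower, and 29.5% of those at 10 to 20 kb were higher, against 5.35% lower. Neighbouring windows share forks and are not independent.

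On the library-mean scale the 3 longest runs of lower windows each held an origin. After the CEN2 run came chromosome III 210001-239000, 29 kb between IMG1 and ATG15 around III-225, with a mean signal of 0.779 and 0.776 in dbf4ΔC, against 5.67 to 6.46 in dbf4-Zn*. Then came chromosome XI 438001-463000, 25 kb with CEN11, XI-448 and the Fkh-dependent XI-458, with 0.642 and 0.655 in dbf4ΔC, against 3.44 to 3.56 in dbf4-Zn*. Of 167 such runs, 128 held an origin. With TMM the longest lower run was 50 kb of chromosome I (137001-187000, FUN14 to PRM9) with CEN1 and 3 origins, at 2.13 and 2.05 in dbf4ΔC, against 4.94 to 5.35 in dbf4-Zn*. It was followed by 40 kb at the rDNA, where the groups overlapped, with 13.3 and 14.9 in dbf4ΔC, against 14.0 to 18.6 in dbf4-Zn*. The third was 37 kb around III-225, with 0.744 and 0.748 in dbf4ΔC, against 4.60 to 5.22 in dbf4-Zn*.

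The 3 longest runs of higher windows held none. The longest covered 185 kb of chromosome VII (899001-1084000, between PMT6 and COS6), where the mean signal was 0.917 and 0.933 in dbf4ΔC, against 0.261 to 0.305 in dbf4-Zn*. The run at chromosome XII 239001-365000 (126 kb, FRE8 to REX3) had 1.89 and 1.83 in dbf4ΔC, against 0.423 to 0.486 in dbf4-Zn*, and that at chromosome II 72001-197000 (125 kb) had 0.640 and 0.665 in dbf4ΔC, against 0.222 to 0.275 in dbf4-Zn*. With TMM the longest higher runs were 53 kb each, on chromosomes IV and XII, and held no origin. That on chromosome IV (927001-980000, HEM1 to EXG2) had 1.95 and 1.88 in dbf4ΔC, against 0.287 to 0.337 in dbf4-Zn*. In dbf4ΔC the stretches on chromosomes XII and IV were above the genome-wide mean and those on chromosomes VII and II below it, and in dbf4-Zn* all held less than 0.5 times the mean. Only 10 of 350 higher runs held an origin.

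Signal near CENs was lower in dbf4ΔC. Within 10 kb of a CEN it was 1.08 and 1.07 times the mean in dbf4ΔC, against 2.01 and 2.01 with dbf4-Zn*1 and 1.92 and 1.95 with dbf4-Zn*2 (difference of means -0.90, two-sided exact permutation test, p = 0.0667). From 10 to 25 kb it was 1.21 and 1.20 in dbf4ΔC, against 2.10 to 2.19 in dbf4-Zn*. From 25 to 50 kb the order turned, with 1.33 and 1.32 in dbf4ΔC, against 1.24 to 1.30 in dbf4-Zn*. Beyond 100 kb it was 0.864 and 0.861 in dbf4ΔC, against 0.758 to 0.765 in dbf4-Zn*. Within 20 kb of a chromosome end signal was higher in dbf4ΔC, at 1.08 and 1.11, against 0.712 to 0.895 in dbf4-Zn* (difference of means 0.30, two-sided exact permutation test, p = 0.0667), and from 50 to 100 kb it was lower, at 1.00 and 0.996, against 1.19 to 1.23 in dbf4-Zn*. No zone overlapped between the groups.

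**Figure D5:**
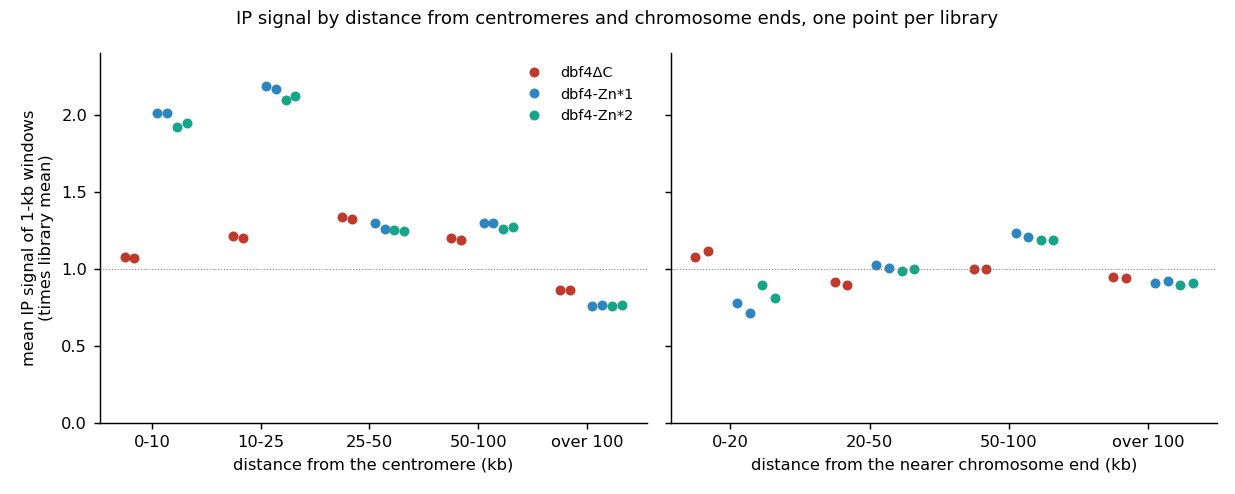
Mean IP signal of 1-kb windows over the library mean (vertical axis) by distance from the centromere (left) and from the nearer chromosome end (right) in kb, one point per library, with dbf4ΔC (red) left of dbf4-Zn*1 (blue) and dbf4-Zn*2 (green). The 2 dbf4ΔC points lie at 1.08 and 1.07 within 10 kb of a centromere, where all dbf4-Zn* points are at or above 1.92, and above the dbf4-Zn* points within 20 kb of an end.

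Signal also shifted between whole chromosomes. The mean signal was lower in both dbf4ΔC libraries than in any dbf4-Zn* library on 7 of 16 chromosomes (43.8%), and higher on 9 (56.2%). The ratio of dbf4ΔC to dbf4-Zn* was lowest on chromosome III, at 0.550, and on chromosome I, at 0.664, both short chromosomes. It was highest on chromosome XIV, at 1.24, where the signal was 0.738 and 0.743 in dbf4ΔC, against 0.589 to 0.606 in dbf4-Zn*.

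The core histone genes, needed for chromatin in S phase, lie close to origins and differed in direction. HTA2-HTB2, beside II-237, had 0.799 and 1.05 in dbf4ΔC, against 13.2 to 14.2 in dbf4-Zn*, and HHT1-HHF1, beside II-254, had 0.995 and 0.904 in dbf4ΔC, against 13.3 to 14.2 in dbf4-Zn*. HTA1-HTB1 had 5.02 and 4.71 in dbf4ΔC, against 16.1 to 17.3 in dbf4-Zn*. HHT2-HHF2, 8.31 kb from the nearest origin, went the other way, with 3.42 and 3.52 in dbf4ΔC, against 1.02 to 1.50 in dbf4-Zn*. All windows tested over these loci were called, lower at the first 3 and higher at HHT2-HHF2, beside 10.7% lower and 65.3% higher over all windows. The first 3 loci lie within 2 kb of an origin, where 80.0% of windows were lower. At 5 to 10 kb, the distance of HHT2-HHF2, 48.4% were higher and 14.6% lower. A difference particular to histone loci was not tested.

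Of the mating loci, HMRA1 had 1.69 and 0.978 in dbf4ΔC, against 0.322 to 0.469 in dbf4-Zn*, and both of its windows were higher, as were 65.3% of all windows. HMLALPHA1 had 0.364 and 0.407 in dbf4ΔC, against 0.273 to 0.334 in dbf4-Zn*, and MATALPHA1 had 0.379 and 0.365 in dbf4ΔC, against 0.178 to 0.436 in dbf4-Zn*, with no window called at either. These loci share sequence with each other, so their values are uncertain. The rDNA took 4.40% and 4.93% of IP counts in dbf4ΔC, against 4.65% to 6.16% in dbf4-Zn*, which overlapped. In Total DNA it took 8.51% and 8.99% in dbf4ΔC, against 11.3% to 13.1% in dbf4-Zn*.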

How the data were processed

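The QBU files hold, as deposited by the authors, unscaled read counts per 50-bp bin along the 16 nuclear chromosomes; submitters' processing notes name Bowtie2, SAMtools and bedtools, without versions, and the genome build is not given in the sources used here. A read is counted in each bin it overlaps. The 6 IP libraries had 1501580 to 6179788 bin counts. Here each library was divided by its mean bin; the 20 IP profiles were averaged, smoothed (median of 21 bins), and local maxima over 5 kb that reached 2 times the library mean became 163 origins, leaving out 3 at the rDNA and 6 at ends. All 20 IP libraries were fitted together by strain with edgeR (version 4.0.16) quasi-likelihood tests on counts in 500-bp and 1-kb windows (windows with a mean of at least 10 counts over the 6 libraries and 0.25 of the mean Total signal), with the Benjamini-Hochberg method, contrasting dbf4ΔC with the mean of dbf4-Zn*1 and dbf4-Zn*2. Per-library measures used exact permutation tests. Log2 origin signal had a pseudocount of 0.1. DESeq2 (version 1.42.0), R 4.3.3 and Python 3.11.15 were used, and the fits were tested on simulated data. Replicates differed by more than counting noise (1.48 to 1.86 chi-square per bin and pair). Alternatives were other scales, windows, filters, origin lists, a replicate block and leaving out each library.

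Named origins are the 8 largest falls and up to 8 rises called without overlap, the 6 highest in each group, the 3 highest and 3 most lowered CEN-proximal origins, those the study names on chromosomes X and XV, and the 3 longest runs of windows at most 2 kb apart. Members, classes, lists and this rule were chosen with earlier results of these data known. Gene names come from RefSeq's R64 gene table, used for names and neighbours only. ChIP-seq files were not used here.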

Additional observations from a re-analysis of the deposited data

Results flagged for a closer look

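Among 34 measures and origins checked in the 4 dbf4-Zn* libraries, 1 had a library far from the rest: at XIV-561, dbf4-Zn*1 replicate 2 had 20.0 times the library mean and the other 3 libraries 18.0 to 18.1. Chance gives such a gap in about 1 of 20 groups.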

How the results depend on the processing

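The scale decided the counts. With TMM 48 origins were lower and 55 higher in dbf4ΔC, and 2342 windows were lower and 1893 higher; DESeq2 gave 53, 56, 2444 and 1955. With the Total count as library size edgeR called 0 origins lower and 0 higher (2 at an unadjusted p under 0.05), 0 windows lower and 302 higher. Alternatives chosen after the data were seen added a replicate block to that: 0 origins lower, 0 higher (9 at an unadjusted p under 0.05) and 11 windows lower in 20 libraries, and 83, 39 and 515 in the 6 libraries. II-237, not called with the Total count, was still at -2.81. The list of 178 origins from the 14 other libraries gave 16 higher. Leaving out each library gave 125 to 132 origins lower and 5 to 9 higher, and 1144 to 1268 windows lower and 5775 to 7647 higher.

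The replicate block alone gave 132 origins lower and 7 higher, and 1288 windows lower and 7791 higher; replicate numbers share only a number (correlations of deviations 0.05, -0.24 and 0.10 between strains), so they were not taken as pairs. Without peaks within 2 kb of an end the Fkh-dependent difference was -0.17, and the cause was not tested. With the median bin subtracted XIV-636 was at -5.94, since its dbf4ΔC signal, 0.429 and 0.496, lay below those libraries' median bins of 0.600 and 0.579. All other per-library measures kept their direction under every alternative run. Depth limits weak origins: the median origin window held 183 and 169 counts in the dbf4ΔC libraries.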

Other observations

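Copy number at the zones around centromeres gave values that no comparison above used. From 25 to 50 kb from a centromere the Total signal was 0.939 and 0.935 in dbf4ΔC, against 0.865 to 0.882 in dbf4-Zn*, and within 10 kb it was 0.940 and 0.931 in dbf4ΔC, against 0.906 to 0.954 in dbf4-Zn*. URA3 and LEU2, the sites of the BrdU cassettes, also differed in IP signal: URA3 had 4.47 and 4.85 in dbf4ΔC, against 0.154 to 0.427 in dbf4-Zn*, and LEU2 had 2.79 and 3.66 in dbf4ΔC, against 0.410 to 0.528 in dbf4-Zn*. HIS3 had 0.310 and 0.216 in dbf4ΔC, against 0.0866 to 0.178 in dbf4-Zn*.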
